A study of Mus musculus with 16 samples.

Results

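The 44 genes described here act when a cell divides: they carry the cell into mitosis, condense its chromosomes, build the spindle and split the cell. They were chosen by symbol from a list of mitosis and spindle genes, and all 44 were found among the 13474 genes with counts. In mitosis, cyclin-dependent kinase 1 (CDK1) bound to its cyclins starts chromosome condensation and spindle assembly. Kinetochores then tie chromosomes to microtubules, and a checkpoint holds the cell until all are attached. The anaphase-promoting complex ends mitosis by marking cyclins and the separase inhibitor for destruction, and the central spindle and a contractile ring divide the cytoplasm. Most of these RNAs are made late in the cycle, when B-MYB (the product of Mybl2) and FOXM1 activate promoters that the DREAM complex had held silent, so in a bulk RNA sample their levels are widely read as a sign of cycling cells. Marrow stromal progenitors are known for dividing in culture and for leaving the cycle as they become bone-forming cells.

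RNA was sequenced from mesenchymal stem/progenitor cells (MSPCs) of C57BL/6 mouse bone marrow at passage 5 to 10, cells that can form bone, cartilage and fat. There were 4 groups with 4 libraries each: cells labelled knockout (KO) for Zfp384 at day 3, wild type (WT) at day 3, KO at day 7 and WT at day 7. Zfp384, also named Nmp4, encodes a zinc finger transcription factor, and the labels say no more of the deleted allele. Day 3 cells had been seeded at 25 cells per mm2 and kept undifferentiated in Mesencult medium. Day 7 cells had been seeded at 62 cells per mm2 in α-MEM, with ascorbic acid (5 µg/mL), dexamethasone (10 nM, a synthetic glucocorticoid) and glycerol 2-phosphate (10 mM) added at 48 hours, which makes them early osteogenic cultures. Day, seeding density and medium therefore differ together and cannot be told apart. By the labels each condition was 1 biological replicate with 4 technical replicates, coded by well, so p-values speak of the spread among wells alone. Each genotype effect is at the same time a contrast of separate cultures.

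Zfp384 RNA was at 89.7 to 93.5 CPM in day 3 libraries labelled KO, against 80.6 to 84.0 CPM in WT, and at 111 to 122 CPM in day 7 libraries labelled KO, against 83.8 to 91.3 CPM in WT. CPM are counts per 1000000 of a library size that is scaled by trimmed means (TMM). In neither comparison did a KO label go with less of the targeted RNA, so the directions between genotypes below rest on the labels. Library totals were 31285188 to 47635039 counts, and the lowest count of any of the 44 genes in any library was 224, so counting error is small here. Of 25 stromal markers all 25 were measured. At day 3 13 rose and 10 fell in the libraries labelled KO, where 43% of all genes rose and 43.4% fell. At day 7 13 rose and 12 fell, where 41.7% of all genes rose and 44.3% fell. With the authors' library sizes 15 markers were higher and 10 lower at day 3, and 15 higher and 9 lower at day 7. Of all 13474 genes 8677 were then higher and 3220 lower at day 3, and 9087 higher and 2969 lower at day 7. The summed level of the stromal markers was 44690 to 48290 CPM in day 3 libraries labelled KO against 35300 to 36550 CPM in WT. At day 7 it was 79610 to 86220 CPM in libraries labelled KO against 47320 to 50210 CPM in WT. Single markers differed by label in either direction. Cxcl12, a chemokine of marrow stroma, averaged 848 CPM in day 3 libraries labelled KO against 4831 CPM in WT, and 149.6 CPM in day 7 libraries labelled KO against 5914 CPM in WT. Ebf3, a stromal transcription factor, was at 0.0539 to 0.251 CPM in day 3 libraries labelled KO against 20.7 to 22.5 CPM in WT. At day 7 Ebf3 was at 0 to 0.0505 CPM in libraries labelled KO against 20.5 to 21.5 CPM in WT. Col1a1, a collagen of stromal and bone cells, was higher in the libraries labelled KO. It was at 17750 to 19970 CPM at day 3 against 12750 to 13570 CPM in WT, and at 28000 to 33710 CPM at day 7 against 16960 to 19060 CPM in WT. Of 25 macrophage and myeloid markers 19 were measured. Their summed level was 40.7 to 49.9 CPM in day 3 libraries labelled KO against 174 to 194 CPM in WT, and 22.9 to 28.4 CPM in day 7 libraries labelled KO against 199.8 to 226 CPM in WT. None of the measured markers was at 0 throughout a group. Ptprc, the leukocyte marker CD45, was at 0.027 to 0.13 CPM in day 7 libraries labelled KO against 0.91 to 1.32 CPM in WT. The part of these other cells in the results was not tested.

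Together the 44 genes took 6431 to 6503 CPM in the 4 day 3 libraries labelled KO, against 4410 to 4544 CPM in the 4 WT libraries. By day 7 the order was turned round, with 1315 to 1424 CPM in the libraries labelled KO against 2325 to 2692 CPM in WT. Summed levels did not overlap between any of the groups. At day 3 37 of the 44 genes rose in the libraries labelled KO and 2, Hmmr and Cdca3, fell, against 42 higher and 0 lower with the authors' library sizes. The test was edgeR's quasi-likelihood test, with p adjusted by Benjamini-Hochberg across the 13474 genes and a threshold of 0.05. Of all genes 43% rose and 43.4% fell in that comparison. The median log2 fold change of the 44 was 0.64, beside -0.0040 over all genes. At day 7 40 of the 44 fell in the libraries labelled KO and 0 rose, against 30 lower and 8 higher with the authors' library sizes. Of all genes 44.3% fell and 41.7% rose. The median was -0.84 beside -0.028 over all genes. All 4 libraries labelled KO were above all 4 WT libraries for 37 of the 44 genes at day 3, as for 41.1% of all genes, and below them for 2 (41.3%). They were below them for 38 at day 7, as for 41.4%. At least 2-fold were 8 of the rises at day 3, where 11.7% of all genes rose that far, and 17 of the falls at day 7, where 16.9% of all genes fell that far. Tested against a change of 1.5-fold (edgeR glmTreat), 21 genes rose and 0 fell at day 3, where 19.1% of all genes rose and 23.4% fell by that test. By the same test 30 fell at day 7, where 23.6% of all genes did. Bulk RNA cannot tell fewer dividing cells from less RNA of these genes per cell.

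Both genotypes had less of all 44 RNAs at day 7 than at day 3. In the libraries labelled KO all 44 fell, each at least 2-fold, where 39.3% of all genes fell, 40.6% rose and 8.79% fell that far. In WT all 44 fell too, but only Mybl2, Cdc20, Espl1 and Cdca3 at least 2-fold, where 34.9% of all genes fell, 32.3% rose and 3.79% fell that far. Groups of the 2 days did not overlap for any of the 44 in either genotype, where 35.7% of all genes lay wholly lower at day 7 in the libraries labelled KO and 32.8% in WT. The median log2 fold change was -2.34 in the libraries labelled KO and -0.85 in WT, beside 0.0099 and -0.0095 over all genes. The test of the difference between those changes, the genotype by day interaction, was passed by all 44 genes towards a deeper fall in the libraries labelled KO, where 33.5% of all genes passed in that direction and 32.5% in the other. The extra fall was at least 2-fold for 41 of the 44, where 7.04% of all genes passed that size, with a median of -1.54 on the log2 scale beside -0.0013 over all genes. Against 1.5-fold (glmTreat) 44 genes fell between days in the libraries labelled KO (13.7% of all genes), 36 in WT (6.12%) and 43 passed for the interaction (9.09%). The comparisons share libraries, so they are not independent of each other.

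Scaling changes what can be said between genotypes. The authors' deposited table holds columns scaled by library sizes that were 0.745 to 0.841 times the total count in libraries labelled KO and 1.181 to 1.348 times in WT. With those sizes the median of all genes moved to 0.49 at day 3 and 0.55 at day 7. The 44 genes then had medians of 1.14 and -0.26, with 42 higher and 0 lower at day 3, and 8 higher and 30 lower at day 7. Over all genes 8677 were then called higher and 3220 lower at day 3, against 5788 and 5850 with TMM, and 9087 and 2969 at day 7, against 5618 and 5974 with TMM. Between days in WT 2987 genes were then called higher and 5670 lower, against 4356 and 4707 with TMM. Relative to the median of all genes the median of the 44 was the same under both scalings at 2 decimals, 0.64 at day 3 and -0.81 at day 7. That sameness is arithmetic and tests nothing, because other library sizes shift every gene by nearly the same amount. All 44 kept their fall between days in each genotype and their interaction with the authors' sizes.

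**Figure D1:**
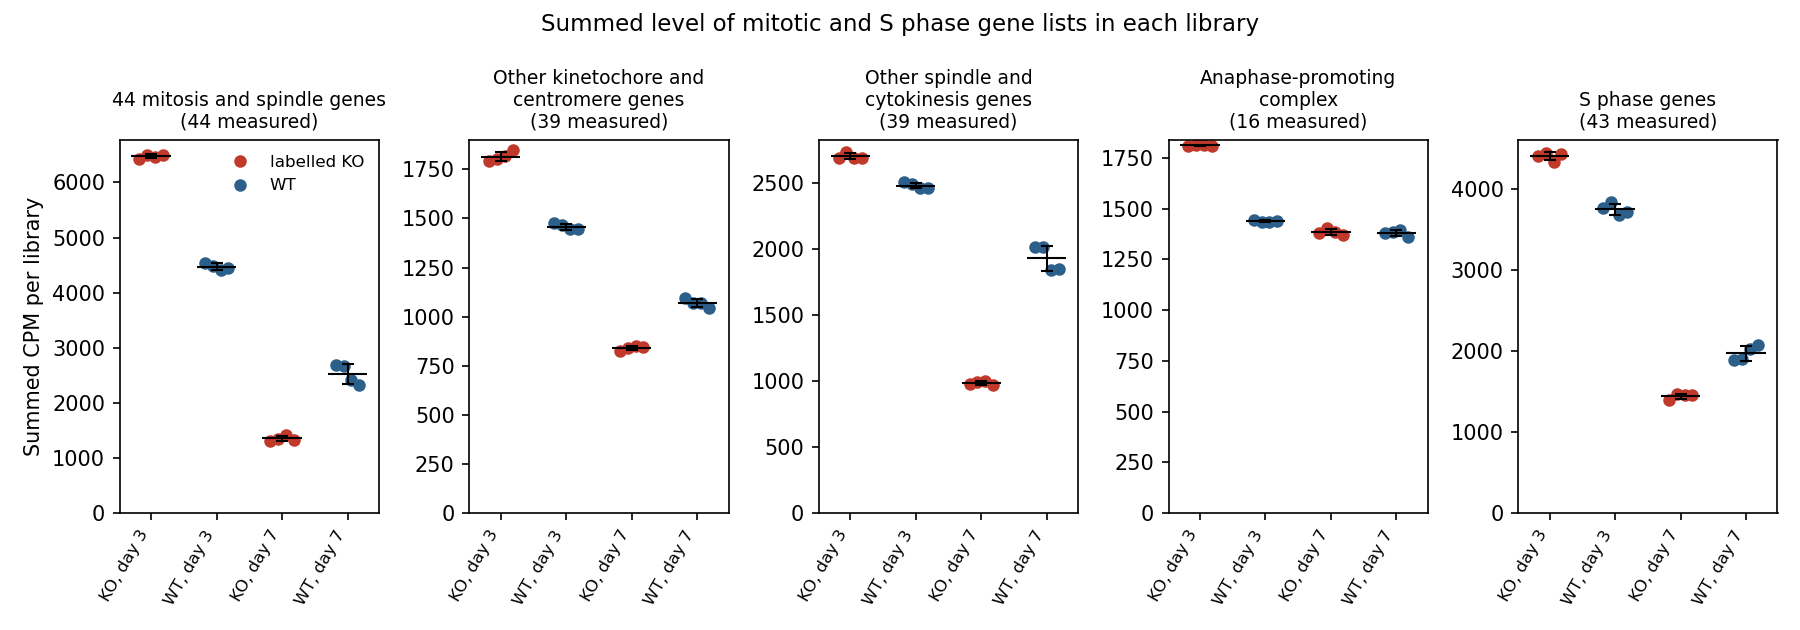
Summed CPM of 5 gene lists in each library (points, vertical axis from 0), with group mean and SD (n = 4), for libraries labelled KO (red) and WT (blue). The 44 mitosis and spindle genes sum to 6431 to 6503 CPM in libraries labelled KO and 4410 to 4544 CPM in WT at day 3, and to 1315 to 1424 CPM in libraries labelled KO and 2325 to 2692 CPM in WT at day 7.

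**Figure D2:**
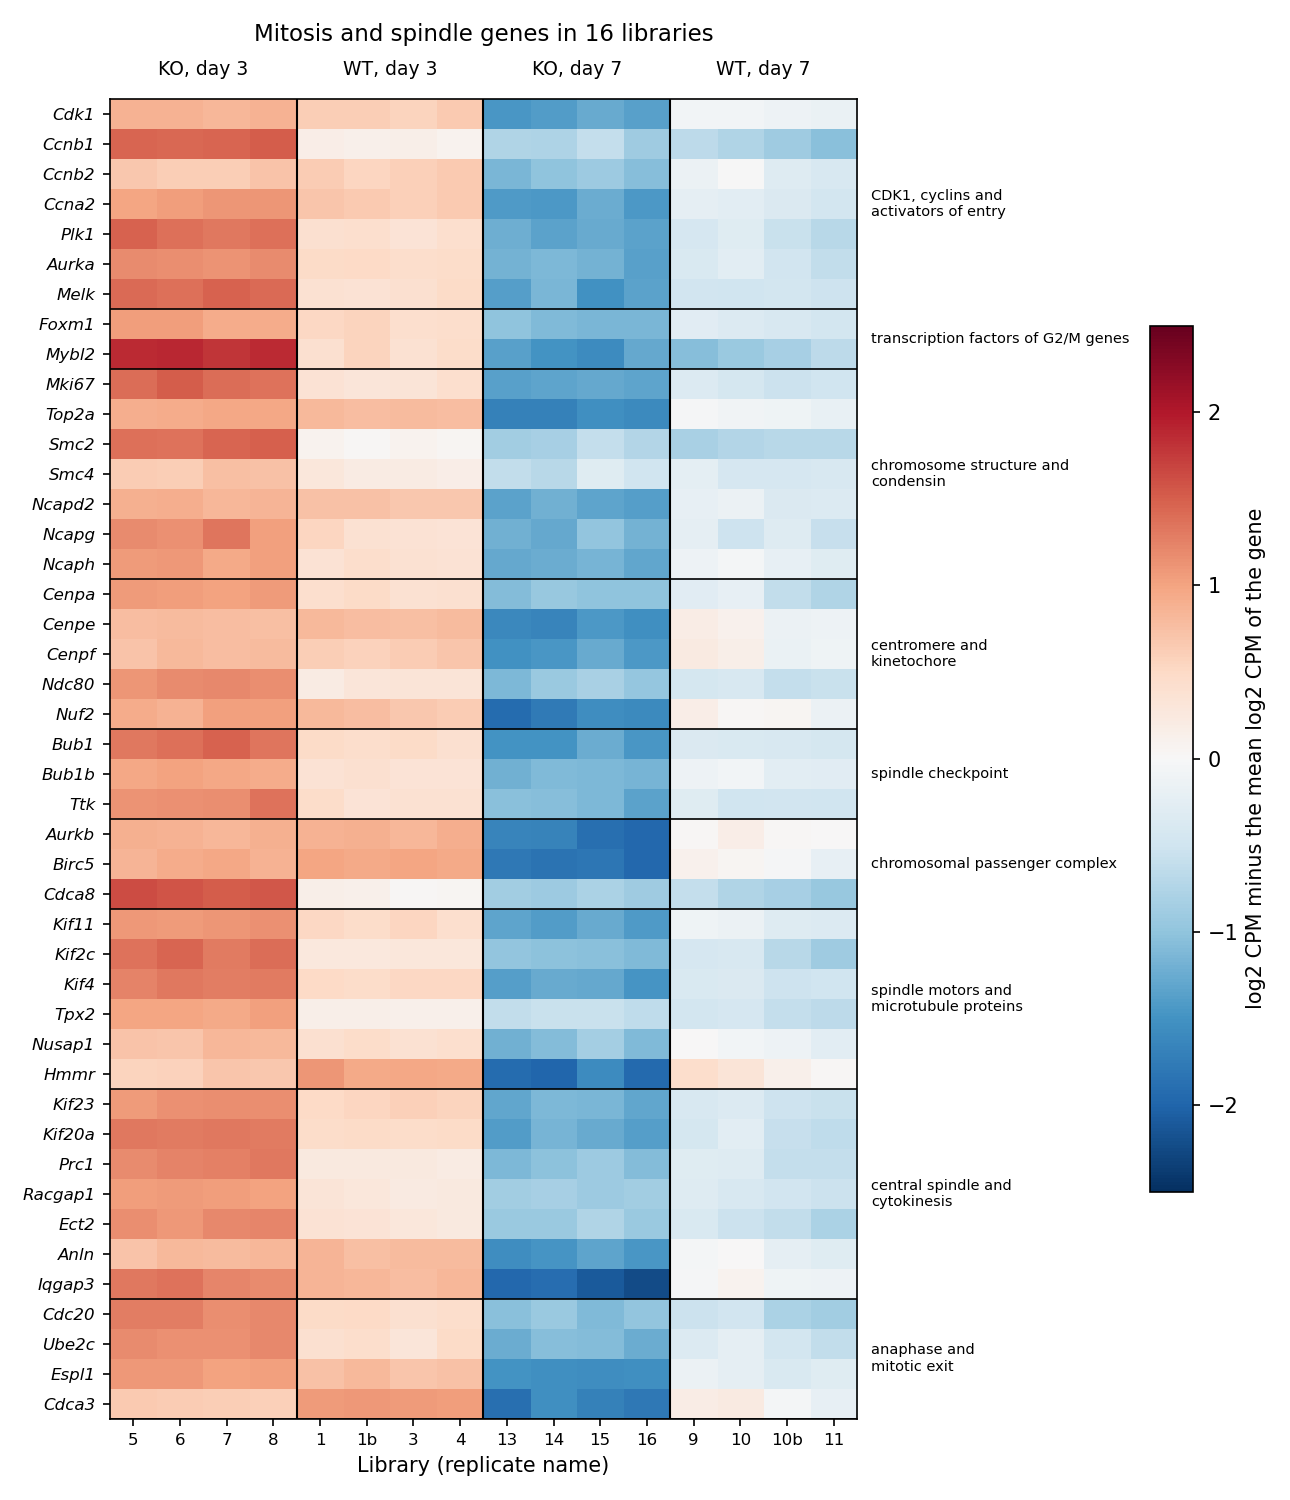
Each of the 44 genes (rows, grouped by role) in each of the 16 libraries (columns, by replicate name; KO stands for labelled KO), as log2 CPM minus the mean of the gene over the libraries. The 4 libraries of a group look alike, day 3 libraries labelled KO are mostly the highest and day 7 libraries labelled KO mostly the lowest, with exceptions such as Hmmr and Cdca3, highest in WT at day 3, and Smc2 and Ccnb1, as low in WT at day 7.

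The promoters of these genes share sequence elements that the choice of members did not use. The cell cycle genes homology region (CHR), bound by the DREAM and B-MYB complexes, reads TTTGAA or, less often, TTTAAA, and CCAAT boxes are bound by the factor NF-Y. Windows of 300 bases, from 250 before to 50 after the start of the gene, were found in RefSeq (GRCm38.p6) for 38 of the 44 genes and searched on both strands. The first listed start was used for each gene, and Ccna2, Foxm1, Smc4, Aurkb, Tpx2 and Kif20a were not among them. TTTGAA was present in 29 of the 38 windows (76.3%), against 11.5% of 10166 windows of genes in the count table. TTTAAA was present in 9 windows (23.7%, against 9.17%) and either form in 32 (84.2%, against 18.9%). In 28 of the 38 windows a match of either form began within 50 bases of the start, against 4.88% of the 10166 windows. CCAAT was present in 28 windows (73.7%, against 38.8%), and 27 windows held both a CHR form and CCAAT (71.1%, against 7.61%). Only 1 pair of CHR and CCAAT matches shared bases. The share of G and C was similar, with a median of 58.7% in the 38 windows and 61% in the table's genes. A match of letters is a description, not proof of a bound site.

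The 150 bases before the start of 7 genes are shown 5′ to 3′ on the strand of the gene, because these genes carry the results below: 6 with CHR and CCAAT letters and Mybl2 with none. Capitals mark the CHR forms and CCAAT boxes; where the match lies on the other strand, a CHR reads TTCAAA and a CCAAT box ATTGG. In GRCm38.p6 the windows lie at chr10:69352913-69353062 (Cdk1, minus strand), chr13:100786487-100786636 (Ccnb1, minus), chr4:118437344-118437493 (Cdc20, minus), chr2:164769779-164769928 (Ube2c, plus), chr7:135716380-135716529 (Mki67, minus), chr15:102296143-102296292 (Espl1, plus) and chr2:163054485-163054634 (Mybl2, plus).
Cdk1: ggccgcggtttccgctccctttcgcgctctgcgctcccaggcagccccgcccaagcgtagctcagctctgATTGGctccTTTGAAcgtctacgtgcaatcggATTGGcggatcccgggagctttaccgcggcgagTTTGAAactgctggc
Ccnb1: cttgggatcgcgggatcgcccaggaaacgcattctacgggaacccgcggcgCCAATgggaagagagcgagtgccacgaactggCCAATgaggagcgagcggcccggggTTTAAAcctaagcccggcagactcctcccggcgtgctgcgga
Cdc20: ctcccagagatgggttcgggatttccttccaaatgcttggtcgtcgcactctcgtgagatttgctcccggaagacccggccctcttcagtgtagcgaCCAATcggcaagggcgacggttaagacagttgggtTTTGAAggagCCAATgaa
Ube2c: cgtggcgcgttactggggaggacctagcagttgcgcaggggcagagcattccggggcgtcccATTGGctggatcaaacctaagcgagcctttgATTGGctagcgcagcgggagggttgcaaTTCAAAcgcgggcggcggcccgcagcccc
Mki67: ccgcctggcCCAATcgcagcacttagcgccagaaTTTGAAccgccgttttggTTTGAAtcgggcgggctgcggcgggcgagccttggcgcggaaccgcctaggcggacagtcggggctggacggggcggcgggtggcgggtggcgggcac
Espl1: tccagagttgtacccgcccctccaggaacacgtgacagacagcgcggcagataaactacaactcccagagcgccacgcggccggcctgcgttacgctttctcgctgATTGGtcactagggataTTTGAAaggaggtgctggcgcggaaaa
Mybl2: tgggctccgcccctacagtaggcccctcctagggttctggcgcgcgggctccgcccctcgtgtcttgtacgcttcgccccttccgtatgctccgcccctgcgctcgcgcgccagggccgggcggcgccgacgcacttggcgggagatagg
Cdk1 holds a CHR form 15 bases before the start and another 71 bases before it, and Ube2c, Espl1 and Cdc20 hold theirs at 29, 27 and 18 bases. Ccnb1 has the TTTAAA form at 42 bases, with CCAAT at 67 and 99 bases. Mki67 has its matches farther out, at 98 and 116 bases. Melk, Ncaph, Nuf2 and Nusap1, like Mybl2, had neither element in the window.

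Of CDK1, its cyclins and kinases of mitotic entry 6 of 7 rose at day 3 in the libraries labelled KO, with Ccnb2 not called. At day 7 6 of 7 fell, with Ccnb1 not called. Among all genes 43% rose at day 3 and 44.3% fell at day 7. With the authors' library sizes all 7 genes of mitotic entry were called higher at day 3 and Ccnb1 was called higher at day 7. Coordinates are those of mm10 (GRCm38). Cdk1 (chr10:69336635-69352912, minus strand), the kinase that drives mitotic entry, was at 199.9, 199.5, 195 and 198 CPM in the 4 day 3 libraries labelled KO, against 168, 168, 161 and 172 CPM in WT. At day 7 Cdk1 was at 40, 41.3, 45.4 and 42.8 CPM in the 4 libraries with the KO label, against 104, 104, 101 and 97.5 CPM in WT. The groups did not overlap at either day, but the distance was far larger at day 7: the log2 fold change was 0.24 ± 0.034 (SE) at day 3 and -1.26 ± 0.037 at day 7 (adjusted p = 1.42e-07 and 8.64e-23). Ccnb1 (chr13:100778739-100786486, minus strand) encodes cyclin B1, the partner of CDK1, and was at 148, 146, 147 and 155 CPM in day 3 libraries labelled KO, against 60.5, 58.8, 59.4 and 57.3 CPM in WT. At day 7 Ccnb1 was at 32.1, 31.4, 35.5 and 29.2 CPM in the 4 libraries with the KO label, against 34.4, 32.03, 28.98 and 26.2 CPM in WT. All libraries labelled KO were thus more than 2-fold above every WT library at day 3, while the groups overlapped at day 7 (log2 fold change 1.34 ± 0.055 and 0.078 ± 0.062, adjusted p = 1.15e-17 and 0.239).

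The other B-type cyclin was separate at day 7 but not at day 3. Ccnb2 (cyclin B2) was at 63.9, 60.97, 61.4 and 65.2 CPM in day 3 libraries labelled KO, against 62.1, 58.4, 60.1 and 62.9 CPM in WT, and at 18.2, 19.8, 21.3 and 19.01 CPM in day 7 libraries labelled KO, against 36.1, 39.9, 31.8 and 30.2 CPM in WT. Its groups overlapped at day 3 (log2 fold change 0.046 ± 0.058, 95% interval -0.073 to 0.17) and did not at day 7 (-0.82 ± 0.066, adjusted p = 1.07e-11). Plk1, the polo-like kinase that helps activate CDK1 and mature spindle poles, averaged 122 ± 5.11 CPM in day 3 libraries labelled KO and 60.8 ± 1.73 CPM in WT (SD, n = 4 each), and 19.01 ± 0.770 CPM in day 7 libraries labelled KO and 33 ± 3.85 CPM in WT. Its level was 1.998 times the WT level at day 3 and 0.577 times at day 7. Aurka, the spindle pole kinase that activates Plk1, and Melk, a kinase abundant in dividing cells, had log2 fold changes of 0.69 ± 0.048 and 1.01 ± 0.049 at day 3 and of -0.78 ± 0.057 and -0.85 ± 0.063 at day 7. Ccna2, cyclin A2 of S phase and early mitosis, had 0.42 ± 0.044 at day 3 and -1.05 ± 0.049 at day 7. Between days Plk1 fell to 0.157 of its day 3 level in the libraries labelled KO and to 0.543 in WT, an interaction of -1.79 ± 0.080 (adjusted p = 3.67e-17). Ccnb2 had the smallest interaction of these 7 genes, -0.86 ± 0.088.

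Both transcription factors that switch on G2/M genes rose at day 3 and fell at day 7 in the libraries labelled KO. Among all genes 43% rose at day 3 and 44.3% fell at day 7. With the authors' library sizes the day 7 value of Mybl2 was 0.018 and not called. Mybl2 (chr2:163054635-163084687, plus strand), which encodes B-MYB, was at 74.98, 75.5, 70.6 and 75.3 CPM in day 3 libraries labelled KO, against 27.1, 30.1, 26.9 and 28.2 CPM in WT. At day 7 it was at 8.06, 7.26, 6.91 and 8.47 CPM in the 4 libraries with the KO label, against 9.83, 10.8, 11.6 and 13.01 CPM in WT. Mybl2 had the second highest rise of the 44 genes at day 3 (1.40 ± 0.056, adjusted p = 1.43e-19), after Cdca8, and the deepest fall between days in WT (-1.31 ± 0.065); in the libraries labelled KO that fall was -3.27 ± 0.066, second to Iqgap3. Foxm1, the forkhead factor that joins B-MYB on these promoters, averaged 200 ± 9.19 CPM in day 3 libraries labelled KO and 141 ± 5.91 CPM in WT, and 47.2 ± 2.08 CPM in day 7 libraries labelled KO and 78.4 ± 4.14 CPM in WT. Its groups did not overlap at either day, with log2 fold changes of 0.50 ± 0.040 and -0.73 ± 0.044 (adjusted p = 2.03e-12 and 2.54e-15).

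Genes of mitotic chromosome structure, condensin among them, moved the same way in the libraries labelled KO. At day 3 7 of 7 rose, and at day 7 6 of 7 fell, with Smc2 not called. Among all genes 43% rose at day 3 and 44.3% fell at day 7. With the authors' library sizes Smc2 and Smc4 were higher at day 7 (0.56 and 0.42). Mki67 (chr7:135689788-135716379, minus strand) encodes Ki-67, a coat of mitotic chromosomes and the usual histological label of cycling cells, and was at 417, 449.9, 414 and 407 CPM in day 3 libraries labelled KO, against 203, 196, 199 and 211 CPM in WT. At day 7 Mki67 was at 62.1, 63.3, 65.4 and 63.6 CPM in the 4 libraries with the KO label, against 125, 117, 108 and 112 CPM in WT. Its level was 2.09 times that of WT at day 3 and 0.550 times at day 7, with no overlap at either day (adjusted p = 1.44e-20 and 9.96e-18). Top2a (chr11:98992947-99024189, minus strand), the topoisomerase that untangles sister chromatids, was at 475, 477, 493 and 491 CPM in day 3 libraries labelled KO, against 441, 430.4, 434 and 432 CPM in WT. At day 7 Top2a was at 78.2, 77.8, 87.2 and 82.9 CPM in the 4 libraries with the KO label, against 248, 236, 232 and 220.5 CPM in WT. So this gene was only slightly apart at day 3 (0.16 ± 0.035) and far apart at day 7 (-1.52 ± 0.038, adjusted p = 1.29e-24).

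Subunits of condensin, the ring that compacts chromosomes, differed from each other, less so relative to their chromosomes. Relative to the median of all genes on their chromosomes, the 7 genes of mitotic chromosome structure lay between 0.55 and 0.68 at day 3. Their SD was then 0.042 in place of 0.45 at day 3 and 0.39 in place of 0.53 at day 7. Smc2 (chr4:52439221-52488365, plus strand), a core ATPase of the ring, was at 166, 165, 176 and 181 CPM in day 3 libraries labelled KO, against 68.5, 65.1, 68.5 and 66.8 CPM in WT, and at 35.2, 36.1, 42.5 and 38.7 CPM in day 7 libraries labelled KO, against 36.8, 38.4, 39.6 and 39.7 CPM in WT. All libraries labelled KO were above WT at day 3 (1.35 ± 0.044, adjusted p = 1.22e-21), and the groups overlapped at day 7 (-0.019 ± 0.049, 95% interval -0.12 to 0.081). Smc4, the partner ATPase, was higher at day 3 (0.46 ± 0.062) and had the smallest fall between days of the 44 genes in the libraries labelled KO (-1.21 ± 0.064) and the smallest interaction (-0.62 ± 0.089, adjusted p = 5.66e-06). Its call at day 7 (-0.16 ± 0.064, adjusted p = 0.0289) was lost without KO replicate 13 (adjusted p = 0.0955), KO replicate 14 (0.109) or WT replicate 9 (0.106), and where only the day 7 groups were fitted (-0.13, adjusted p = 0.119), and its groups overlapped. Without KO replicate 15 it was -0.24 (adjusted p = 5.4e-05). The non-ATPase subunits of condensin I, Ncapd2, Ncapg and Ncaph, had log2 fold changes of 0.17, 0.77 and 0.65 at day 3 and of -1.05, -0.76 and -1.07 at day 7. Ncaph averaged 15.2 ± 0.628 CPM in day 7 libraries labelled KO and 32.1 ± 2.28 CPM in WT.

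Of 5 centromere and kinetochore genes 4 rose at day 3, with a median log2 fold change of 0.24 and none at 2-fold. At day 7 5 of 5 fell with a median of -1.44. Among all genes 43% rose at day 3 and 44.3% fell at day 7. With the authors' library sizes Cenpa and Ndc80 were at 0.020 and 0.12 at day 7, not called. Nuf2 (chr1:169497934-169531464, minus strand), a microtubule-binding subunit of the outer kinetochore, was at 70.3, 67.8, 75.7 and 74.97 CPM in day 3 libraries labelled KO, against 64.5, 63.1, 59.3 and 57.7 CPM in WT. At day 7 Nuf2 was at 9.80, 10.9, 12.7 and 12.3 CPM in the 4 libraries with the KO label, against 41.3, 37.7, 38.05 and 33.5 CPM in WT. The libraries labelled KO lay above WT at day 3 and below it at day 7, with no overlap (0.24 ± 0.058 and -1.72 ± 0.071, adjusted p = 0.000487 and 4.63e-18). Its direct partner Ndc80 differed less at day 7, averaging 56.1 ± 1.45 CPM in day 3 libraries labelled KO and 30.7 ± 1.14 CPM in WT, and 12.9 ± 1.12 CPM in day 7 libraries labelled KO and 17.8 ± 1.11 CPM in WT. Cenpe (chr3:135212563-135273540, plus strand), the kinesin that carries chromosomes to the spindle equator, was at 149.6, 152, 150 and 148 CPM in day 3 libraries labelled KO, against 154, 149, 147 and 150.5 CPM in WT. At day 7 Cenpe was at 28.5, 27.7, 32.1 and 30.3 CPM in the 4 libraries with the KO label, against 99.9, 94.4, 79.3 and 79.7 CPM in WT. The groups overlapped at day 3 (-0.0016 ± 0.054, 95% interval -0.11 to 0.11) and were apart at day 7, where the level in the libraries labelled KO was 0.336 times that of WT. Cenpa, the histone H3 variant that marks centromeres, averaged 99.3 ± 1.89 CPM in day 3 libraries labelled KO and 64.2 ± 1.77 CPM in WT, and 23.96 ± 0.936 CPM in day 7 libraries labelled KO and 35.3 ± 6.36 CPM in WT. Its log2 fold changes were 0.63 ± 0.076 and -0.56 ± 0.087. Cenpf, a large kinetochore protein, was at -1.44 ± 0.073 at day 7 and passed at day 3 by little (0.14 ± 0.064, adjusted p = 0.0457). That call was lost without any 1 of 8 libraries (KO replicates 6, 7, 8, 14 and 16, WT replicates 1, 1b and 3), with adjusted p between 0.0519 and 0.103. It was also lost with total counts alone (0.070, adjusted p = 0.322) and with a minimum of 10 CPM in 4 libraries (0.11, adjusted p = 0.111).

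Spindle checkpoint genes, which delay anaphase while kinetochores are unattached, rose at day 3 and fell at day 7 in the libraries labelled KO, 3 of 3 each time. Among all genes 43% rose at day 3 and 44.3% fell at day 7. Bub1 (chr2:127800200-127831859, minus strand), the kinase that recruits the checkpoint to kinetochores, was at 82.2, 86.1, 92.4 and 83.7 CPM in day 3 libraries labelled KO, against 46.4, 45.03, 46.1 and 43.7 CPM in WT. At day 7 Bub1 was at 11.8, 11.8, 13.98 and 12.1 CPM in the 4 libraries with the KO label, against 25.7, 25.3, 25 and 24.4 CPM in WT. The level in libraries labelled KO was 1.90 times that of WT at day 3 and 0.495 times at day 7, and no library crossed between groups (adjusted p = 1.37e-17 and 2.26e-16). Bub1b encodes BUBR1, the checkpoint protein that blocks CDC20, and had log2 fold changes of 0.61 ± 0.039 and -0.97 ± 0.043. Ttk, the kinase MPS1 at the top of the checkpoint, had 0.81 ± 0.058 and -0.69 ± 0.073; with the authors' library sizes its day 7 value was -0.11 and not called.

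The 3 members of the chromosomal passenger complex, which corrects faulty attachments and then directs cytokinesis, split sharply, less so relative to their chromosomes. Aurkb (chr11:69045643-69051662, plus strand), its kinase Aurora B, was at 68.7, 67.3, 65.8 and 68.2 CPM in day 3 libraries labelled KO, against 67.4, 68.3, 65.3 and 69.7 CPM in WT. At day 7 Aurkb was at 11.7, 11.5, 9.98 and 9.43 CPM in the 4 libraries with the KO label, against 37.8, 41.5, 37.5 and 37.3 CPM in WT. Groups overlapped at day 3 (-0.0024 ± 0.045, 95% interval -0.095 to 0.090), and at day 7 every library labelled KO was below every WT library (-1.85 ± 0.056, adjusted p = 1.73e-22). Cdca8 (chr4:124918465-124936917, minus strand) encodes borealin, which places the complex on centromeres, and was at 95.3, 92.03, 88.2 and 90.7 CPM in day 3 libraries labelled KO, against 34.1, 33.8, 31.6 and 32.2 CPM in WT. At day 7 Cdca8 was at 17, 16.4, 17.8 and 16.6 CPM in the 4 libraries with the KO label, against 20.6, 18.3, 17.3 and 15.98 CPM in WT. Its rise at day 3 was the highest of the 44 genes (1.48 ± 0.049, 2.78-fold, adjusted p = 2.16e-21), while the groups overlapped at day 7 (-0.087 ± 0.059, called lower with total counts alone at -0.21, adjusted p = 0.00178). Birc5, the survivin subunit, went with Aurkb, at -0.064 ± 0.046 at day 3 and -1.83 ± 0.056 at day 7. With the authors' library sizes Aurkb and Birc5 were called higher at day 3 (0.50 and 0.43) and Cdca8 at day 7 (0.49). The interaction for the 3 genes was -1.85 ± 0.072, -1.77 ± 0.072 and -1.56 ± 0.077. Aurkb and Birc5 lie on chromosome 11 and Cdca8 on chromosome 4. Relative to the median of all genes on their chromosomes, Aurkb, Birc5 and Cdca8 were at 0.43, 0.37 and 0.80 at day 3. On that scale they were at -1.39, -1.37 and -0.70 at day 7. Their SD was then 0.23 in place of 0.87 at day 3 and 0.40 in place of 1.01 at day 7.

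Of 6 spindle motors and microtubule proteins 5 rose and 1 fell at day 3, and 5 fell at day 7 with Tpx2 not called. Among all genes 43% rose and 43.4% fell at day 3, and 44.3% fell at day 7. With the authors' library sizes Hmmr was at 0.13 at day 3, not called. At day 7 Kif2c (0.13, not called) and Tpx2 (0.51) were then above 0. Kif11 (chr19:37376403-37421859, plus strand), the kinesin that pushes spindle poles apart, was at 182, 179, 185 and 188 CPM in day 3 libraries labelled KO, against 122, 117, 124 and 115 CPM in WT. At day 7 Kif11 was at 34.2, 32.5, 35.9 and 32.01 CPM in the 4 libraries with the KO label, against 79.9, 77.4, 68.05 and 67.2 CPM in WT. The libraries labelled KO lay above WT at day 3 and below it at day 7 (0.62 ± 0.044 and -1.12 ± 0.050, adjusted p = 2.96e-13 and 3.93e-18). Hmmr (chr11:40701388-40733437, minus strand), a microtubule-binding protein of spindle poles, was at 77.4, 78.5, 85.2 and 84.4 CPM in day 3 libraries labelled KO, against 114, 102, 104 and 102 CPM in WT. At day 7 Hmmr was at 13.97, 13.3, 17.8 and 13.7 CPM in the 4 libraries with the KO label, against 71.4, 66.3, 57.9 and 54.2 CPM in WT. It was below WT at both days, with log2 fold changes of -0.37 ± 0.079 and -2.08 ± 0.094 (adjusted p = 0.000295 and 3.87e-13), the day 7 value being the deepest of the 44 genes. Tpx2, which activates Aurora A and nucleates spindle microtubules, averaged 272 ± 5.83 CPM in day 3 libraries labelled KO and 151 ± 1.03 CPM in WT, and 91 ± 2.83 CPM in day 7 libraries labelled KO and 95.3 ± 7.02 CPM in WT, where the groups overlapped (95% interval -0.15 to 0.014). Kif2c, a kinesin that takes microtubules apart, Kif4, a kinesin that limits the length of the central spindle, and Nusap1, a microtubule bundler, had log2 fold changes of 1.11, 0.78 and 0.34 at day 3 and of -0.45, -0.90 and -0.94 at day 7.

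Central spindle and cytokinesis genes rose in 6 of 7 cases at day 3 in the libraries labelled KO, with Anln not called. At day 7 7 of 7 fell. Among all genes 43% rose at day 3 and 44.3% fell at day 7. With the authors' library sizes Racgap1 (0.14) and Ect2 (0.27) were called higher at day 7 and Prc1 was at -0.010, not called. Anln was then called higher at day 3 (0.49). Iqgap3 (chr3:88082051-88121048, plus strand), a scaffold that binds actin and is produced in dividing cells, was at 123, 127, 116 and 112 CPM in day 3 libraries labelled KO, against 88.8, 87.7, 84.2 and 87.9 CPM in WT. At day 7 Iqgap3 was at 12.6, 13.2, 11.5 and 10.5 CPM in the 4 libraries with the KO label, against 48.5, 52.5, 45.9 and 45.2 CPM in WT. It had the deepest fall between days in the libraries labelled KO (-3.32 ± 0.059, a 9.97-fold fall) and the deepest interaction (-2.46 ± 0.077, adjusted p = 8.33e-21), while its fall in WT was close to the median of the 44 (-0.86 ± 0.050). Prc1 (chr7:80294451-80316259, plus strand), which bundles the microtubules of the central spindle, was at 182, 190.1, 193 and 199.7 CPM in day 3 libraries labelled KO, against 95.2, 95.1, 94.6 and 92.6 CPM in WT. At day 7 Prc1 was at 36.8, 39.2, 42.4 and 37.6 CPM in the 4 libraries with the KO label, against 64.6, 63.8, 52.97 and 53.3 CPM in WT. The groups were apart at both days (1.02 ± 0.052 and -0.59 ± 0.057, adjusted p = 2.34e-15 and 8.16e-10). Kif23 and Racgap1 together form centralspindlin, which keys the cleavage furrow to the spindle, and had 0.58 ± 0.044 and 0.78 ± 0.036 at day 3 and -0.76 ± 0.052 and -0.43 ± 0.038 at day 7. Kif20a, a kinesin that moves the passenger complex to the midzone, had 0.84 ± 0.056 and -0.83 ± 0.062. Ect2, the exchange factor that switches on RhoA for the contractile ring, had 0.87 ± 0.055 at day 3, and its groups overlapped at day 7 though it passed the test (-0.31 ± 0.063, adjusted p = 6.44e-05). Anln, the ring scaffold anillin, was at -0.0092 ± 0.049 at day 3 (95% interval -0.11 to 0.093) and -1.32 ± 0.055 at day 7.

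Of 4 genes of anaphase and mitotic exit 3 rose at day 3 and Cdca3 fell, and 4 of 4 fell at day 7. Among all genes 43% rose and 43.4% fell at day 3, and 44.3% fell at day 7. With the authors' library sizes Cdca3 was at 0.058 at day 3, not called, and Cdc20 was called higher at day 7 (0.23). Cdc20 (chr4:118432901-118437343, minus strand), the activator of the anaphase-promoting complex, was at 187, 187, 173 and 178 CPM in day 3 libraries labelled KO, against 108, 109, 103 and 105 CPM in WT. At day 7 Cdc20 was at 37.7, 40.98, 36.2 and 39.1 CPM in the 4 libraries with the KO label, against 53.1, 55.5, 44.6 and 42.4 CPM in WT. The groups stood well apart at day 3 (0.77 ± 0.058) and nearly touched at day 7 (-0.35 ± 0.065, adjusted p = 4.73e-05). Ube2c (chr2:164769929-164772902, plus strand), the ubiquitin-conjugating enzyme of that complex, was at 128, 126, 124 and 129.6 CPM in day 3 libraries labelled KO, against 74.8, 76.3, 69.3 and 78.6 CPM in WT. At day 7 Ube2c was at 23.8, 26.9, 26.6 and 23.96 CPM in the 4 libraries with the KO label, against 44.9, 48.3, 41.2 and 37.02 CPM in WT. Both days had separate groups (0.76 ± 0.055 and -0.76 ± 0.063, adjusted p = 1.95e-12 and 3.1e-11). Cdca3 (chr6:124830176-124833701, plus strand), a trigger of mitotic entry that is destroyed on exit, was at 92.9, 92.5, 90.5 and 89.3 CPM in day 3 libraries labelled KO, against 124, 126, 123 and 122 CPM in WT. At day 7 Cdca3 was at 16.2, 20.4, 18.4 and 17.2 CPM in the 4 libraries with the KO label, against 67.4, 69.6, 57.7 and 51.3 CPM in WT. Every library labelled KO was below every WT library at both days (-0.44 ± 0.069 and -1.77 ± 0.081, adjusted p = 7.07e-06 and 5.19e-14). Espl1, the separase that cuts cohesin at anaphase, averaged 134 ± 3.996 CPM in day 3 libraries labelled KO and 108 ± 3.83 CPM in WT, and 22.3 ± 0.378 CPM in day 7 libraries labelled KO and 53.8 ± 3.86 CPM in WT (0.31 ± 0.040 and -1.27 ± 0.046).

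**Figure D3:**
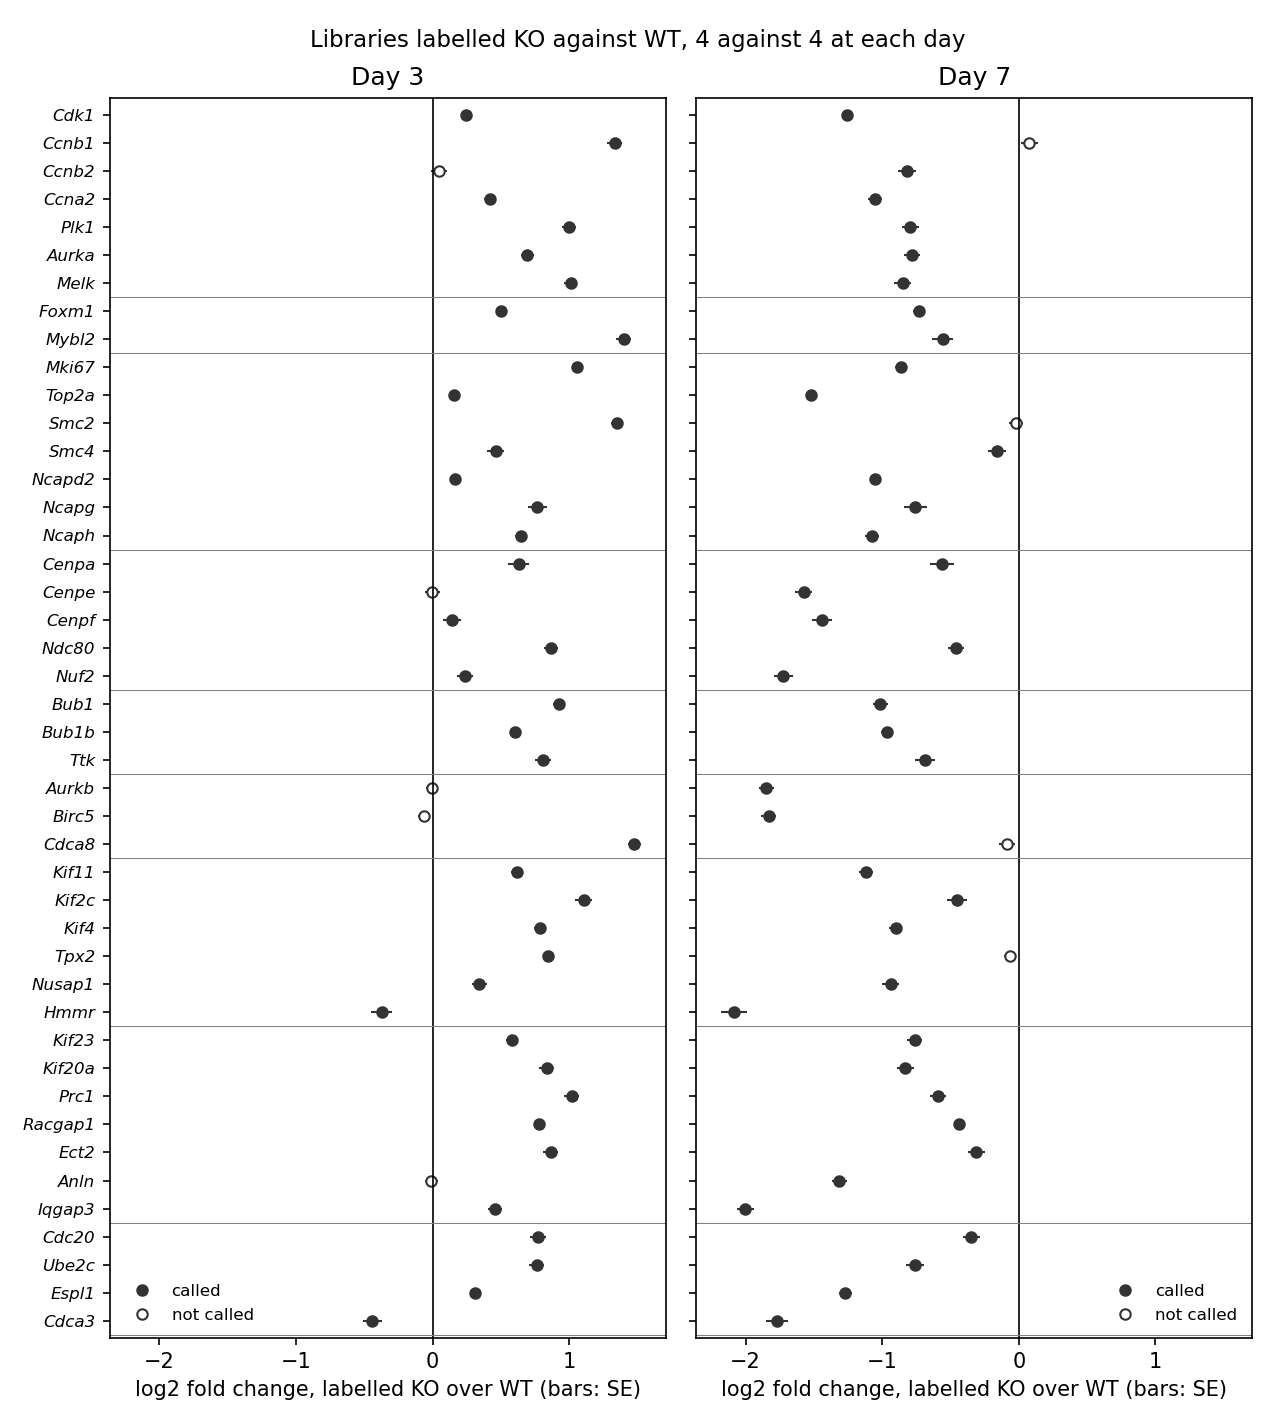
Log2 fold change of libraries labelled KO over WT (horizontal axis, bars are SE from the edgeR fit) for each of the 44 genes at day 3 and at day 7, 4 libraries against 4; open circles did not pass the adjusted p of 0.05. At day 3 37 genes lie to the right of 0 and called, and at day 7 40 lie to the left and called. Among all genes 43% are called higher at day 3 and 44.3% lower at day 7. With the authors' library sizes 0 of the 44 genes are called lower at day 3 and 8 are called higher at day 7.

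**Figure D4:**
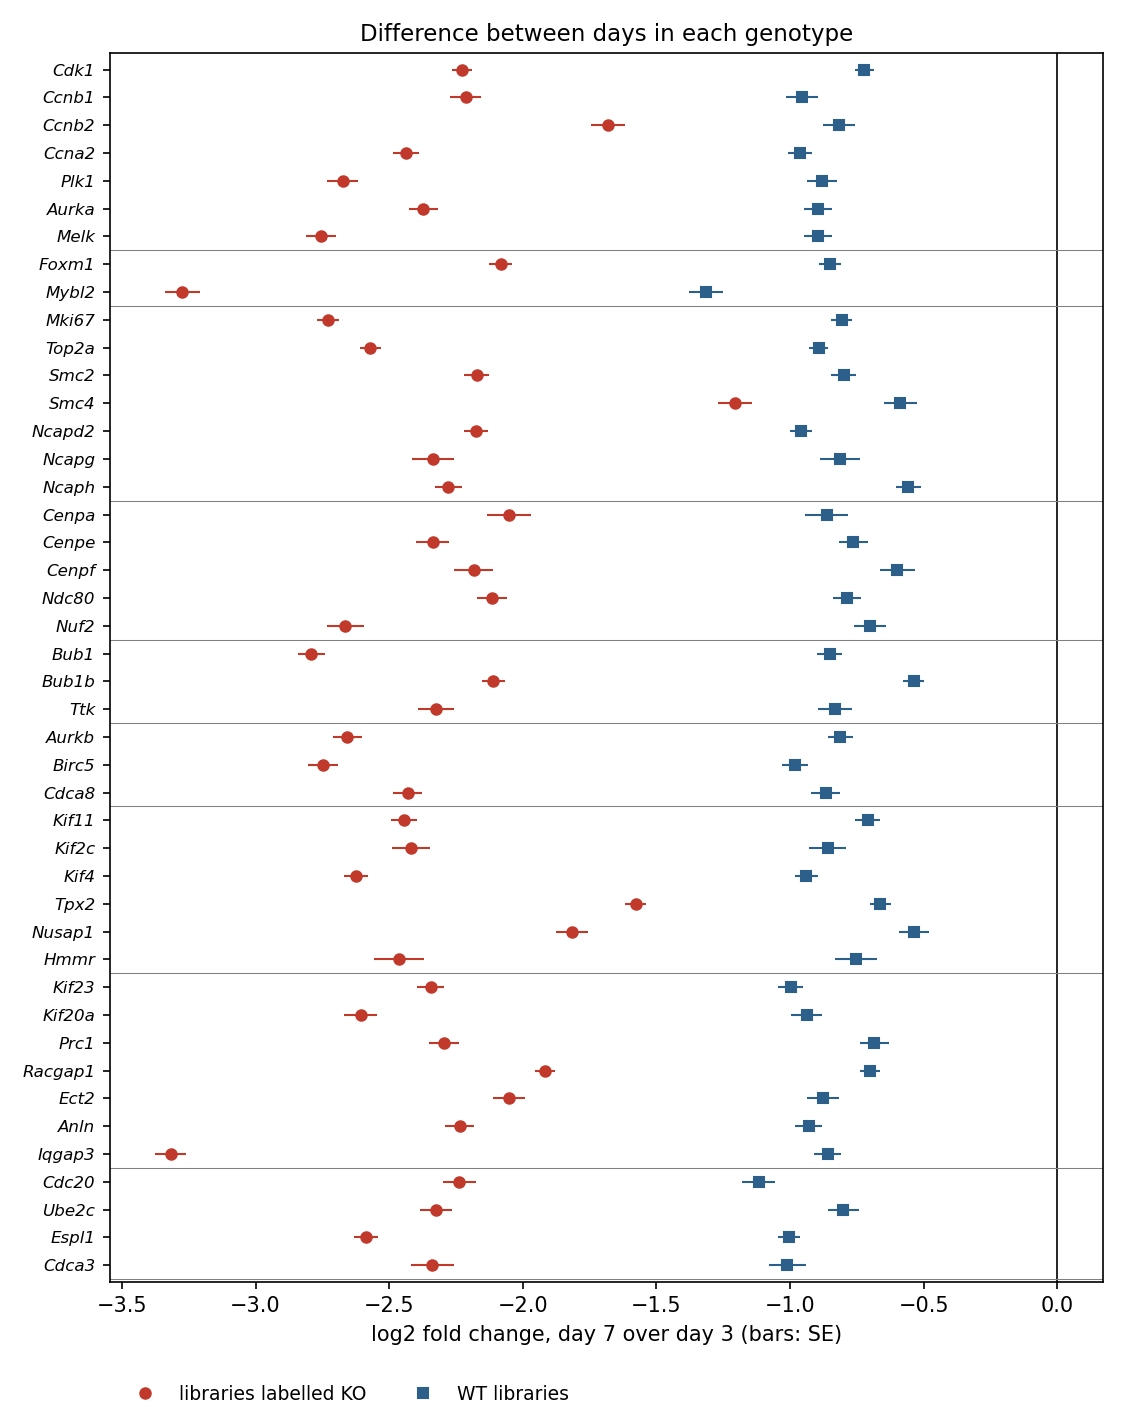
Log2 fold change of day 7 over day 3 (horizontal axis, bars are SE) for each of the 44 genes in libraries labelled KO (red circles) and in WT (blue squares), 4 libraries against 4. The values run from -3.32 to -1.21 in the libraries labelled KO and from -1.31 to -0.54 in WT, and for each gene the red circle lies to the left of the blue square.

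Per kilobase of summed exon length, which lets genes be compared with each other, Ube2c had the highest level of the 44 in day 3 libraries labelled KO (136 ± 2.60 CPM per kilobase), ahead of Cdc20 (102 ± 3.94) and Top2a (92.8 ± 1.78). In WT at day 3 Cdca3 (83.3 ± 1.15 CPM per kilobase), Top2a (83.3 ± 0.892) and Ube2c (80.3 ± 4.26) were the 3 highest, within their spread of each other. At day 7 Ube2c was highest in both, at 27.2 ± 1.77 CPM per kilobase in the libraries labelled KO and 46.03 ± 5.21 in WT, where Top2a (44.9 ± 2.16) and Cdca3 (41.3 ± 5.74) were within the spread. In the libraries labelled KO at day 7 Smc4 (26.4 ± 3.22 CPM per kilobase) came second, within its spread of Ube2c. The lowest were Cenpf in day 3 libraries labelled KO (9.68 ± 0.281 CPM per kilobase), Ttk in WT at day 3 (7.58 ± 0.253) and Mybl2 at day 7 in both (2.07 ± 0.192 in the libraries labelled KO and 3.05 ± 0.364 in WT). Exons of 9 of the 44 genes overlap those of another gene in GENCODE vM21, so their counts are uncertain to that extent. No label or header read here says whether counting used strand. These are Kif20a (32.5% of the exon length, with Cdc23), Prc1 (26.9%, with Rccd1), Ncapg (20.8%, with Lcorl), Ccna2 (18.1%, with Exosc9), Kif4 (10.7%), Plk1 (7.08%), Nusap1 (5.81%), Foxm1 (3.3% and 2.22% with 2 genes of the same strand) and Cdc20 (2.97%).

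The chromosome on which a gene lies went with its difference between genotypes. Over all genes the median log2 fold change, libraries labelled KO over WT at day 3, was 0.83 on chromosome 13, 0.68 on chromosomes 4 and 18, 0.41 on chromosome 7, -0.38 on chromosome 6 and -0.44 on chromosome 11. The medians at day 7 were 0.70, 0.61, 0.61, 0.28, -0.31 and -0.46 in the same order of chromosomes. All 5 members on chromosome 4 (Smc2, Melk, Cdca8, Kif2c and Cdc20) were between 0.77 and 1.48 at day 3 and between -0.85 and -0.019 at day 7. The 4 on chromosome 11 (Top2a, Aurkb, Birc5 and Hmmr) were between -0.37 and 0.16 at day 3 and between -2.08 and -1.52 at day 7. Across the 44 genes, which are not independent replicates and share all libraries, the log2 fold change and the median of the chromosome had a Pearson r of 0.77 and a Spearman rho of 0.79 at day 3, and 0.63 and 0.61 at day 7. Between days within a genotype the same r was 0.16 in the libraries labelled KO and 0.068 in WT, and 0.22 for the interaction. Relative to the median of its chromosome, 43 of the 44 genes were above 0 at day 3 (median 0.59) and 43 below 0 at day 7 (median -0.90), and the SD over the 44 was 0.29 in place of 0.46 at day 3 and 0.43 in place of 0.55 at day 7. On that scale Ccnb1 was at 0.51 at day 3 and -0.63 at day 7, and Aurkb at 0.43 and -1.39. Centring turned the sign of Cenpe (0.15), Aurkb, Birc5 (0.37), Anln (0.24) and Hmmr (0.062) at day 3, and of Ccnb1 and Smc4 (0.0052) at day 7. Of these Hmmr and Smc4 had been called. Cdca3 was at -0.058 at day 3. The part of the chromosomes in the results was not tested.

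**Figure D5:**
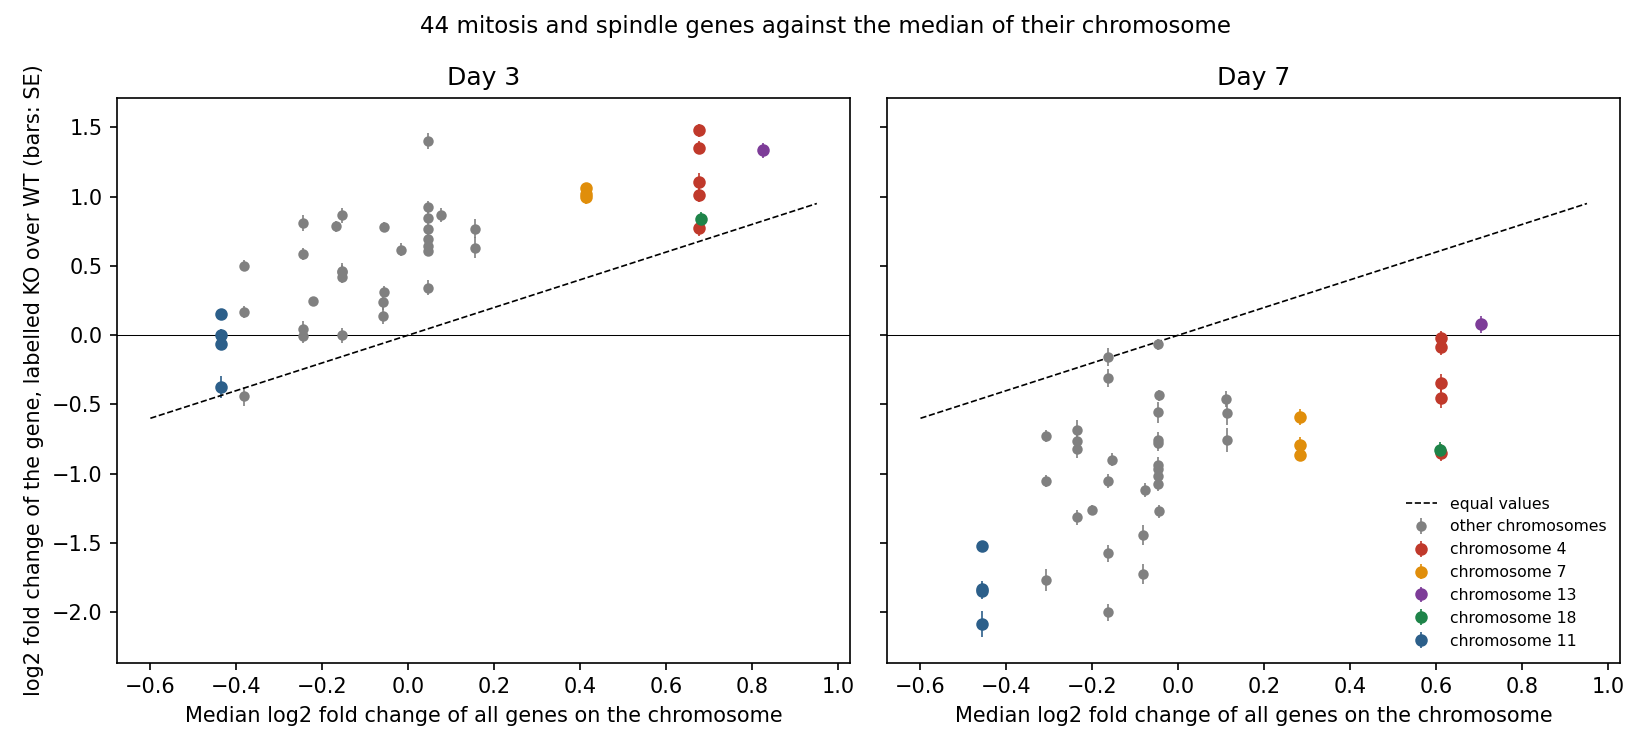
Log2 fold change of each of the 44 genes, libraries labelled KO over WT (vertical axis, bars are SE), against the median over all genes of its chromosome (horizontal axis) at day 3 and day 7; the dashed line marks equal values and 5 chromosomes are coloured. At day 3 43 of the 44 genes lie above the line and at day 7 43 lie below it, with chromosome 4 genes to the right and chromosome 11 genes to the left.

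Other genes of the same processes were taken from 5 lists that exclude the 44: further kinetochore and centromere genes, further spindle and cytokinesis genes, further condensin, cohesin and separation genes, the anaphase-promoting complex, and regulators of entry with CDK inhibitors. Of 126 measured, 85 rose and 30 fell at day 3 (median 0.37) in the libraries labelled KO, and 25 rose and 86 fell at day 7 (median -0.50). Of all genes 43% rose and 43.4% fell at day 3, and 41.7% rose and 44.3% fell at day 7. Between days 115 of the 126 fell and 6 rose in the libraries labelled KO (median -1.58), where 39.3% of all genes fell. In WT 100 fell and 10 rose (median -0.54), where 34.9% of all genes fell. The interaction was passed by 109 of the 126 towards a deeper fall in the libraries labelled KO, and by 4 the other way (median -0.90). Of all genes 33.5% and 32.5% passed in these directions. With the authors' library sizes 115 were called higher and 5 lower at day 3 (median 0.87). At day 7 58 were then higher and 50 lower (median 0.075), so the direction with more calls turns with the scaling. Of all 13474 genes 8677 were called higher and 3220 lower at day 3 with those sizes (median 0.49). At day 7 9087 of all genes were higher and 2969 lower (median 0.55), so the median of the 126 still lay below that of all genes. These shares and counts of all genes apply to the lists below too.

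Further kinetochore genes (39 measured) had 28 higher and 10 lower at day 3 and 4 higher and 32 lower at day 7, against 12 higher and 20 lower at day 7 with the authors' library sizes. Incenp, the scaffold of the chromosomal passenger complex, averaged 184 ± 6.55 CPM in day 3 libraries labelled KO and 76.2 ± 1.74 CPM in WT (1.28 ± 0.038, adjusted p = 1.31e-22), and 46.8 ± 2.53 CPM in day 7 libraries labelled KO and 46.3 ± 1.79 CPM in WT. Spc24 and Spc25, the partners of Ndc80 and Nuf2 in the kinetochore's microtubule binder, fell at day 7, with log2 fold changes of -2.37 ± 0.076 and -1.78 ± 0.071, and were also called lower with the authors' library sizes. Spc24 averaged 3.14 ± 0.401 CPM in day 7 libraries labelled KO and 16.4 ± 0.957 CPM in WT. Kntc1, which brings dynein to kinetochores, had an interaction of -1.86 ± 0.068 (adjusted p = 1.31e-19).

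Further spindle and cytokinesis genes (39 measured) had 28 higher and 8 lower at day 3 and 4 higher and 29 lower at day 7, against 14 higher and 18 lower at day 7 with the authors' library sizes. The exceptions at day 3 include Psrc1 and Gtse1, microtubule-binding proteins that are also targets or partners of p53. Psrc1 averaged 7.18 ± 0.333 CPM in day 3 libraries labelled KO and 216 ± 1.998 CPM in WT, and 3.18 ± 0.327 CPM in day 7 libraries labelled KO and 336 ± 12.3 CPM in WT. Gtse1 averaged 60.5 ± 3.23 CPM in day 3 libraries labelled KO and 214 ± 5.80 CPM in WT, and 11.03 ± 0.895 CPM in day 7 libraries labelled KO and 181 ± 5.23 CPM in WT. Both were lower at both days (-4.91 ± 0.046 and -6.72 ± 0.051 for Psrc1, -1.83 ± 0.040 and -4.03 ± 0.049 for Gtse1), also with the authors' library sizes. Shcbp1, a midbody protein, and Kif15, a kinesin that backs up Kif11, fell between days in the libraries labelled KO, with log2 fold changes of -2.63 ± 0.065 and -2.64 ± 0.066.

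Of 16 measured genes of the anaphase-promoting complex 8 rose and 7 fell at day 3, where 43% of all genes rose and 43.4% fell. At day 7 7 rose and 8 fell, where 41.7% of all genes rose and 44.3% fell. These shares are near those of all genes, and the medians were 0.21 and -0.097. With the authors' library sizes 15 rose and 0 fell at day 3 and 11 rose and 3 fell at day 7. Of all 13474 genes 8677 rose and 3220 fell at day 3 with those sizes, and 9087 rose and 2969 fell at day 7. The summed level of the complex was 1809 to 1815 CPM in day 3 libraries labelled KO against 1433 to 1445 CPM in WT. At day 7 it was 1371 to 1403 CPM in libraries labelled KO against 1362 to 1397 CPM in WT, where the groups overlapped. Ube2s, which extends ubiquitin chains on its substrates, averaged 145 ± 7.36 CPM in day 3 libraries labelled KO and 55.97 ± 1.68 CPM in WT (1.37 ± 0.051, adjusted p = 1.02e-19). Fbxo5, the inhibitor EMI1 that restrains the complex until mitosis, averaged 8.43 ± 0.281 CPM in day 7 libraries labelled KO and 19.2 ± 0.654 CPM in WT (-1.19 ± 0.056). Further condensin, cohesin and separation genes (16 measured) had 9 higher and 2 lower at day 3 and 5 higher and 9 lower at day 7, and 9 higher and 5 lower at day 7 with the authors' library sizes. Kif22, the kinesin on chromosome arms, averaged 80.6 ± 3.01 CPM in day 3 libraries labelled KO and 35.03 ± 1.28 CPM in WT, and 15.2 ± 0.821 CPM in day 7 libraries labelled KO and 21.2 ± 2.10 CPM in WT.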

How the data were processed

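RNA of 16 cell culture wells was sequenced as strand-specific poly(A) libraries, per the labels' protocols. Reads were processed with STAR 2.4.2a, featureCounts and edgeR on mm10, per the submitters' processing notes, which give no roles, annotation or strand setting. The deposited table holds raw counts per gene, which were tested, and a scaled column per library: signal that the authors made by dividing counts by 1 constant per library. The authors' other column is the exon length of each gene. CPM, fold changes and tests were computed here from the counts with R 4.3.3 and edgeR 4.0.16: TMM scaling, 4 group means over all 16 libraries and robust quasi-likelihood tests, with Benjamini-Hochberg adjustment over 13474 genes and a threshold of 0.05. filterByExpr removed 0 genes. The common coefficient of variation, which edgeR names biological, was 4.25%, here a spread among wells of 1 culture per condition. No libraries were merged: those that share a number (1 and 1b, 10 and 10b) differed beyond counting noise, at 2.89 and 4.74 chi-square per degree of freedom, as did the other 22 pairs (2.33 to 17.88). The code was tested on simulated data.

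The 44 genes were given by symbol, and they and the other lists were chosen with earlier results of these data known. All 44 could be named; of each other list, per comparison, up to 2 called genes by size of log2 fold change, if their higher group reached 5 CPM, with Rrm2, Ccne1, Zfp384 and some markers. Alternatives were DESeq2 1.42.0, 3 other scalings, 2 filters, fewer samples, summed libraries, a test against 1.5-fold (glmTreat), centring on chromosome medians and leaving out each library. Markers of endothelial (3 of 10 measured) and of lymphoid or erythroid cells (1 of 11) were summed too. Endothelial sums were 6.755 to 8.13 CPM in day 3 libraries labelled KO against 11.2 to 12.3 CPM in WT. At day 7 they were 21.8 to 26.3 CPM in libraries labelled KO against 9.93 to 11.4 CPM in WT. The lymphoid or erythroid marker was at 0 to 0.162 CPM in day 3 libraries labelled KO against 3.64 to 4.05 CPM in WT. At day 7 this marker was at 0 to 0.0959 CPM in libraries labelled KO against 2.09 to 2.75 CPM in WT.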

Additional observations from a re-analysis of the deposited data

Results flagged for a closer look

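The fall between days differed between genotypes for all 44 genes by the test of the interaction (log2, change in libraries labelled KO minus change in WT, 4 libraries a group, SE 0.050 to 0.12), where 33.5% of all genes passed in that direction. Among the genes of mitotic entry it was -1.50 for Cdk1, -1.26 for Ccnb1, -0.86 for Ccnb2, -1.47 for Ccna2, -1.79 for Plk1, -1.48 for Aurka and -1.86 for Melk. In the transcription factors it was -1.23 for Foxm1 and -1.96 for Mybl2. For the chromosome structure genes it was -1.92 for Mki67, -1.68 for Top2a, -1.37 for Smc2, -0.62 for Smc4, -1.22 for Ncapd2, -1.52 for Ncapg and -1.72 for Ncaph. Mybl2 stood lowest of these 3 groups and Smc4 highest. Among the centromere and kinetochore genes it was -1.19 for Cenpa, -1.57 for Cenpe, -1.58 for Cenpf, -1.33 for Ndc80 and -1.96 for Nuf2. In the checkpoint genes it was -1.94 for Bub1, -1.57 for Bub1b and -1.49 for Ttk. For the passenger complex it was -1.85 for Aurkb, -1.77 for Birc5 and -1.56 for Cdca8. Among the spindle motors and microtubule proteins it was -1.74 for Kif11, -1.56 for Kif2c, -1.68 for Kif4, -0.92 for Tpx2, -1.28 for Nusap1 and -1.71 for Hmmr. In the central spindle and cytokinesis genes it was -1.35 for Kif23, -1.67 for Kif20a, -1.61 for Prc1, -1.21 for Racgap1, -1.18 for Ect2, -1.31 for Anln and -2.46 for Iqgap3. For the genes of anaphase and exit it was -1.12 for Cdc20, -1.52 for Ube2c, -1.58 for Espl1 and -1.33 for Cdca3. Iqgap3 had the deepest and Smc4 the shallowest value of the 44, and all 44 were also called with the authors' library sizes.

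Single libraries stood apart from the other 3 of their group in 10 of 176 gene and group pairs by Dixon's criterion, where chance alone gives about 1 in 20, and in 0 groups for the summed CPM of the 44 genes. That criterion seeks a single library and cannot see a split into pairs. In WT day 7 the 44 genes summed to 2692 and 2663 CPM in replicates 9 and 10. In replicates 10b and 11 of that group they summed to 2406 and 2325 CPM. KO day 7 replicate 15 was the high one for 4 genes: Ccna2 at 42.7 CPM (others 37.1 to 38.0), Bub1 at 13.98 CPM (11.8 to 12.1), Hmmr at 17.8 CPM (13.35 to 13.97) and Ect2 at 28.3 CPM (25.1 to 25.2). WT day 7 replicate 9 was high for Smc4 at 130.4 CPM (115.9 to 117.7) and Ttk at 14.6 CPM (12.8 to 12.9), and WT day 7 replicate 10 for Aurkb at 41.5 CPM (37.3 to 37.8). At day 3 KO replicate 8 was high for Ttk at 46.4 CPM (39.3 to 40.1), KO replicate 7 low for Mybl2 at 70.6 CPM (75.0 to 75.5), and WT replicate 1 high for Hmmr at 114 CPM (101.7 to 103.8).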

How the results depend on the processing

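Of 1936 single-gene values tested under the alternatives other than left-out libraries, 1860 kept sign and call, 42 lost and 7 gained a call with the same sign, and 27 changed sign. Of these 27, 17 were called in the fit reported or in the alternative, all with the authors' library sizes, and 10 in neither. Part of the agreement was fixed in advance. The fit with no filter repeated the fit reported, because filterByExpr removed 0 genes. The glmTreat values used the fold changes of the fit reported, so their signs could not change. All 44 falls between days, in each genotype, and all 44 interactions kept their direction under every alternative run. With the authors' library sizes the values at day 3 turned above 0 for Cenpe (0.50), Aurkb (0.50), Birc5 (0.43), Anln (0.49), Hmmr (0.13) and Cdca3 (0.058), and 0 of the 44 genes were called lower. At day 7 they turned for Mybl2 (0.018), Smc2 (0.56), Smc4 (0.42), Cenpa (0.020), Ndc80 (0.12), Cdca8 (0.49), Kif2c (0.13), Tpx2 (0.51), Racgap1 (0.14), Ect2 (0.27) and Cdc20 (0.23), and 8 genes were called higher. The larger library sizes of WT in the authors' scaling account for this shift by construction. The 10 others were Cenpe, Aurkb and Anln at day 3 with median-of-ratios factors and with DESeq2 (0.0027 to 0.010), Cenpe with libraries that share a number summed (0.0029), Smc2 at day 7 with only those groups fitted (0.0079), and Ccnb2 at day 3 (-0.025) and Ccnb1 at day 7 (-0.049) with total counts alone. Centred on the chromosome median, which has no test, 7 values changed sign: Cenpe (0.15), Aurkb (0.43), Birc5 (0.37), Anln (0.24) and Hmmr (0.062) at day 3, and Ccnb1 (-0.63) and Smc4 (0.0052) at day 7. With a library left out 20 values changed sign, those of Cenpe, Aurkb and Anln at day 3 and of Smc2 at day 7, none of them called. Against 1.5-fold (glmTreat), which asks for a larger change, 21 genes were called higher and 0 lower at day 3, 30 lower at day 7, 36 lower between days in WT, 44 in the libraries labelled KO and 43 for the interaction. Left-out libraries gave 36 to 37 genes called higher and 2 lower at day 3, and 0 to 1 higher and 39 to 42 lower at day 7 (0 higher and 44 lower in the other comparisons), the 1 being Ccnb1 without WT replicate 9 (0.14, adjusted p = 0.0275 by edgeR). Without WT day 7 replicate 11 Cdca8 (-0.14) and Tpx2 (-0.10) were called lower. Total counts alone moved the median of all genes at day 7 to -0.15; Smc2 (-0.15, adjusted p = 0.00944 by edgeR), Cdca8 (-0.21, 0.00178) and Tpx2 (-0.19, 5.26e-05) were then called lower at day 7 and Birc5 at day 3 (-0.14, 0.00958), and Cenpf lost its call at day 3. With only the groups compared Birc5 was called lower at day 3 (-0.069, adjusted p = 0.0416 by edgeR) and Smc4 lost its call at day 7. No paired analysis was possible because the groups share no replicate numbers. Depth was not limiting for the 44 genes, the lowest count being 224; the 4 wells of 1 culture per condition were.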

Other observations

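Regulators upstream of the 44 genes, described here as values, moved in both directions. Among 21 genes of the DREAM, MuvB, E2F and Rb list 12 rose and 6 fell at day 3 in the libraries labelled KO. Of all genes 43% rose and 43.4% fell there. At day 7 7 of the 21 rose and 11 fell, where 41.7% of all genes rose and 44.3% fell. With the authors' library sizes 16 of the 21 rose and 4 fell at day 3, and 13 rose and 6 fell at day 7. With those sizes 8677 of all 13474 genes rose and 3220 fell at day 3, and 9087 rose and 2969 fell at day 7. E2f7 and E2f8, repressors of the E2F family, fell between days, with log2 fold changes of -3.14 ± 0.051 and -2.77 ± 0.067 in the libraries labelled KO and of -1.05 ± 0.046 and -1.12 ± 0.058 in WT. Mybl1, the A-MYB relative of Mybl2, was lower at both days, averaging 9.19 ± 0.915 CPM in day 3 libraries labelled KO and 25.98 ± 0.756 CPM in WT, and 2.08 ± 0.377 CPM in day 7 libraries labelled KO and 19.5 ± 1.69 CPM in WT. Rb1, the retinoblastoma protein, averaged 14.8 ± 0.926 CPM in day 3 libraries labelled KO and 37.4 ± 0.806 CPM in WT, and 15.9 ± 1.90 CPM in day 7 libraries labelled KO and 42.8 ± 2.69 CPM in WT.

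Cdkn1a, the CDK inhibitor p21, averaged 19.4 ± 1.53 CPM in day 3 libraries labelled KO and 140.3 ± 4.21 CPM in WT (-2.86 ± 0.043, adjusted p = 9.94e-30), and 112 ± 2.53 CPM in day 7 libraries labelled KO and 145 ± 1.82 CPM in WT, although with the authors' library sizes it was higher at day 7 (0.21). It rose between days in the libraries labelled KO (2.53 ± 0.043), with an interaction of 2.48 ± 0.056, opposite in sign to all 44 mitotic genes. Cdkn1c, the CDK inhibitor p57, ran the other way between genotypes, averaging 1.16 ± 0.350 CPM in day 3 libraries labelled KO and 0.0102 ± 0.0203 CPM in WT (adjusted p = 2.79e-12), and 5.88 ± 0.625 CPM in day 7 libraries labelled KO and 0.0338 ± 0.0331 CPM in WT (adjusted p = 1.39e-18), also with the authors' library sizes. The list of 17 entry regulators and CDK inhibitors that holds both had 13 higher and 3 lower at day 3. Of all genes 43% rose and 43.4% fell there. At day 7 the list had 5 higher and 9 lower, where 41.7% of all genes rose and 44.3% fell. With the authors' library sizes it had 16 higher and 1 lower at day 3, and 12 higher and 4 lower at day 7. With those sizes 8677 of all 13474 genes were higher and 3220 lower at day 3, and 9087 higher and 2969 lower at day 7. Of 43 S phase genes 33 rose and 5 fell at day 3 in the libraries labelled KO, and 6 rose and 32 fell at day 7. Among all genes 43% rose and 43.4% fell at day 3, and 41.7% rose and 44.3% fell at day 7. With the authors' library sizes 42 rose and 1 fell at day 3, and 22 rose and 15 fell at day 7, beside the counts of all genes given above. All 43 fell between days in both genotypes, with medians of -1.74 in the libraries labelled KO and -0.83 in WT. Between days 39.3% of all genes fell in the libraries labelled KO and 34.9% in WT. Rrm2, a ribonucleotide reductase subunit of that list, was lower at both days, at 194 ± 4.30 CPM in day 3 libraries labelled KO against 448 ± 6.58 CPM in WT and at 19.4 ± 1.96 CPM in day 7 libraries labelled KO against 146 ± 5.53 CPM in WT. Ccne1, cyclin E1, was higher at day 3 (0.46 ± 0.051) and lower at day 7 (-1.15 ± 0.066). Lower values of Mybl1, Rb1 and Rrm2 in the libraries labelled KO and both directions of Ccne1 were also called with the authors' library sizes.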
